A study of Mus musculus with 6 samples.

Results

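The genes described here are 42 mouse genes of fat cell formation, drawn from the 23725 genes of a count table. They are markers of the preadipocyte, the regulators that start or hold back adipogenesis, and the genes of lipid storage, hormone secretion and insulin response that mark a mature adipocyte. Each was taken by the Entrez identifier of its symbol, and all 42 matched a row. They were read in 3T3-L1 cells (3T3.L1 in the labels), an embryonic mouse fibroblast line that can be turned into adipocytes in culture. In the EV group, 3 cultures received extracellular vesicles (EVs) of MLP29 cells, a mouse liver progenitor line, for 24 h. In the control group, 3 cultures received an equivalent preparation of cell-free, non-conditioned medium. All 6 cultures were kept in complete medium cleared of its own vesicles, and no hormonal induction of adipogenesis is named in the labels or the methods. The libraries are control 1, 2 and 3 and EV 1, 2 and 4, and each EV culture received a separate EV preparation, so that the p-values measure the spread between these plates of 1 cell line.

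A preadipocyte is a fibroblast-like cell that carries surface receptors such as PDGFRA and holds differentiation back with the membrane protein DLK1. When it is induced, the transcription factors C/EBPβ and C/EBPδ appear first and switch on PPARG and C/EBPα, which then keep each other on and drive the genes of the fat cell. GATA factors, Wnt ligands and the NCOR1 corepressor restrain this step. Mature adipocytes coat their lipid droplets with perilipin, take up and release fatty acids, secrete adiponectin, and take up glucose through SLC2A4 in response to insulin.

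The counts summed to between 508599 and 665465 per library. The 42 genes together held 0.169%, 0.181% and 0.174% of them in control 1, 2 and 3, and 0.146%, 0.133% and 0.144% in EV 1, 2 and 4. A gene with at most 3 counts in every library was taken as being at the floor. In CPM, counts scaled to a common library size, 3 counts correspond to between 4.51 and 5.9 CPM by library totals, a limit that covers counting error only. The normalized CPM used below are scaled otherwise. On that scale, 3 counts of Fabp4 in control 1 were 5.54 and 3 counts of Rxra in EV 1 were 6.34. The library kit marks the strand of each read, but the strand setting of the counting is not given in the sources used here. Actb, an actin gene that every cell uses, had between 36 and 162 counts per library. Of the 100 most counted genes, 83 were found in GENCODE vM21, and 66 of these shared exon sequence with a gene on the opposite strand, a share that was 24.8% over all genes found there. Each value below is therefore the count listed under a gene, which need not be the level of its mRNA, and a gene at the floor is at the floor of these counts only.

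Of the 42 genes, 25 had more than 3 counts in at least 1 library, and 17 of them had more than 3 counts in every library. The other 17 were at the floor. Preadipocyte markers stood above the floor in 5 of 6 cases and adipocyte markers in 5 of 13. A count of 0 was listed in all 6 libraries for 8 genes: Adipoq (adiponectin), Cfd (adipsin) and Retn (resistin), which are hormones and secreted factors of fat, Plin1 and Cidec, which coat the droplets of adipocytes, Cd36, a fatty acid transporter, and the regulators Klf15 and Ebf2. Between 1 and 3 counts at most were listed under Pparg and Cebpa, the core pair of adipogenesis, under Klf5, Gata2, Gata3 and Wnt10b, and under the markers Cd34, Dgat2 and Slc2a4. Pparg, for example, had 0, 3 and 1 counts in the controls and 1, 2 and 0 after EV treatment, and Cebpa had 0, 2 and 3 against 1, 2 and 1. At such low counts a difference between the groups was not detectable for any of the 17.

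**Figure D1:**
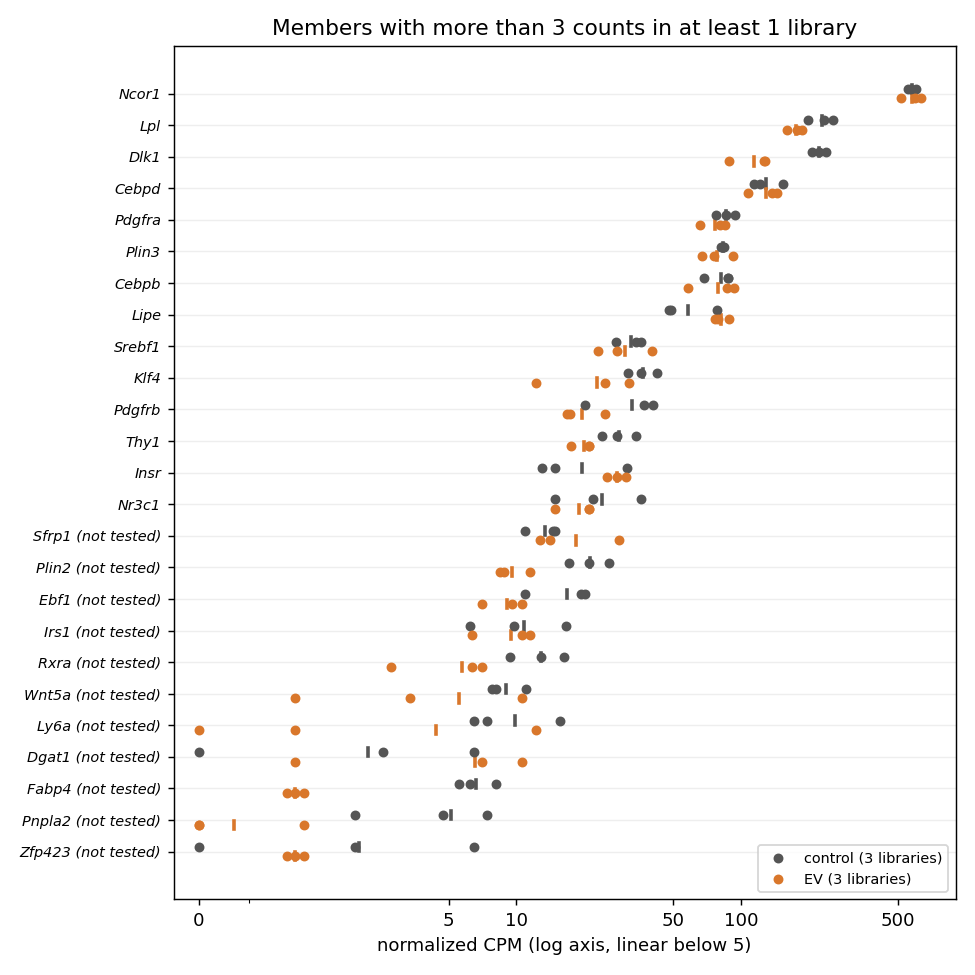
Normalized CPM (log axis, linear below 5 CPM) of the 25 genes with more than 3 counts in at least 1 library, with 1 point per library (grey control, orange EV, 3 libraries each) and a bar at each group mean. The EV points of Dlk1 and Lpl all lie left of their control points, whereas the points of Cebpd and Ncor1 overlap.

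To compare levels between genes, normalized CPM were divided by the exon length in kilobases. This length merges the exons of all GENCODE transcripts of a gene and can exceed the length of its mRNA. For Cebpd it was 3.75 kb, longer than the RefSeq span of the gene (15887286 to 15889545). It was 4.49 kb for Fabp4 and 10.5 kb for Lpl. Levels per kilobase therefore depend on the annotation as well as on the counts. On this scale the highest control means were those of Cebpb with 54.0, Ncor1 with 44.9, Dlk1 with 39.4, Cebpd with 34.7, and Lpl and Plin3 with 21.9 each. Cebpb stood at percentile 83.8 of all tested genes and Dlk1 at 78.5. The order among them is not firm everywhere. Over the 6 libraries Cebpb ranged from 38.7 to 61.8 CPM per kb and Ncor1 from 40.0 to 49.2, so that these neighbours overlapped, as did Cebpd (28.7 to 40.9) with Dlk1 (15.7 to 42.2). At the other end were Insr with 1.43 CPM per kb, Irs1 with 1.19, Wnt5a with 1.15, Dgat1 with 1.11 and Zfp423 with 0.572, again as control means.

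The start regions of these genes differed in their content of CpG, the dinucleotide that is dense at the promoters of widely used genes. In RefSeq sequence of GRCm38.p6, 27 of the 42 genes had an entry, and the 250 bases before the most upstream start listed for each were read. For 14 of the 27 that start lies within the gene's annotated span, and for 13 it is the end of the span. The median was 17 CpG in the 14 genes above the floor, 6 in the 13 genes at the floor and 6 in all 27025 genes with an entry. Among the 13 windows outside the gene span it was 20 in 6 genes above the floor and 4 in 7 genes at the floor. Levels did not follow the CpG count gene by gene, since Cebpa held 22 and was at the floor while Ebf1 held 9 and was above it. Windows of 3 of these genes are shown because they span the range of CpG content, with every CpG in capitals. They lie outside the gene span, on the plus strand, at chr2:167688665-167688914 (Cebpb, above the floor, 41 CpG), chr7:35119043-35119292 (Cebpa, at the floor, 22 CpG) and chr16:23146286-23146535 (Adipoq, at 0 in every library, 0 CpG).
Cebpb: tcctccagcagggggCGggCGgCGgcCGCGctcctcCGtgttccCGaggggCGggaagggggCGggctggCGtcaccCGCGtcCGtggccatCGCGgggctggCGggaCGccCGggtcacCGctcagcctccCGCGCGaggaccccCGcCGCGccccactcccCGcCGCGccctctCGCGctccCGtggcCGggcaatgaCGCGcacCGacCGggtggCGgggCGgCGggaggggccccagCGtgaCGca
Cebpa: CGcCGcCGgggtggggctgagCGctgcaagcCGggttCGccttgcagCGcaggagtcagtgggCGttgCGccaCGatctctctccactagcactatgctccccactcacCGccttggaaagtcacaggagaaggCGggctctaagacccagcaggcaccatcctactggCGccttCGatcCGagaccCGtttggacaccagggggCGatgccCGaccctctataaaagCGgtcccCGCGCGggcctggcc
Adipoq: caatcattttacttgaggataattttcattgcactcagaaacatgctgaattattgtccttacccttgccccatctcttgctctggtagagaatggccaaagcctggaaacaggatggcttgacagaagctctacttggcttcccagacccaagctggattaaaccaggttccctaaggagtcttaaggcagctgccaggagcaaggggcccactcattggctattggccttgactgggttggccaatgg

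The same windows were searched on both strands for 5 short motifs, whose matches may overlap and of which the GC box and the C/EBP palindrome contain a CpG themselves. The GC box GGGCGG was present in 14 of the 27 windows (51.9%, against 33% of all genes with an entry), among them Cebpb with 5 matches and Lipe with 6. The CCAAT box was present in 6 of 27 (22.2%, against 34.5%), with 3 matches before Adipoq. The TATA box TATAAA was present in 1 of 27 (3.7%, against 13%), before Cebpa. No window held the C/EBP palindrome TTGCGCAA (0.17% of all genes) or the direct repeat AGGTCANAGGTCA (0.037% of all genes), to which the PPARG and RXRA pair binds. These counts describe the letters of the windows and say nothing about binding.

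To ask whether EVs changed these genes, the counts of the EV libraries were compared with those of the control libraries. Of the 42 genes, 14 passed the filter on low counts and were tested with edgeR's quasi-likelihood method at an adjusted p of 0.05. The counts of Dlk1 and Lpl fell, and no gene of the 14 rose. Without adjustment, 4 genes were lower and 1 was higher at a p of 0.05, and the Wald test of DESeq2 called 1 lower (Dlk1) and 0 higher. Among all 5066 tested genes, 1088 were lower and 747 higher without adjustment, and DESeq2 called 294 lower and 245 higher. The 2 adjusted calls of edgeR are 14.3% of the genes tested, below the 22.1% of all 5066 tested genes that passed the same threshold and close to the 14.4% that passed it on the lower side. The direction was lower in 11 of the 14, with a median log2 fold change of -0.14, beside 0.014 for all genes tested. For 3 of the 14, the EV and control values did not overlap (Dlk1, Lpl and Thy1, all lower in EV), against 39.4% of all genes tested. Klf4, Pdgfrb and Thy1 reached the minimum of the filter on low counts in all 3 control libraries but not in all 3 EV libraries, and Insr did the reverse. Being tested thus favoured a lower EV value for Klf4, Pdgfrb and Thy1 and a higher one for Insr. In bulk cultures, fewer cells that carry a transcript and less of it per cell cannot be told apart.

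**Figure D2:**
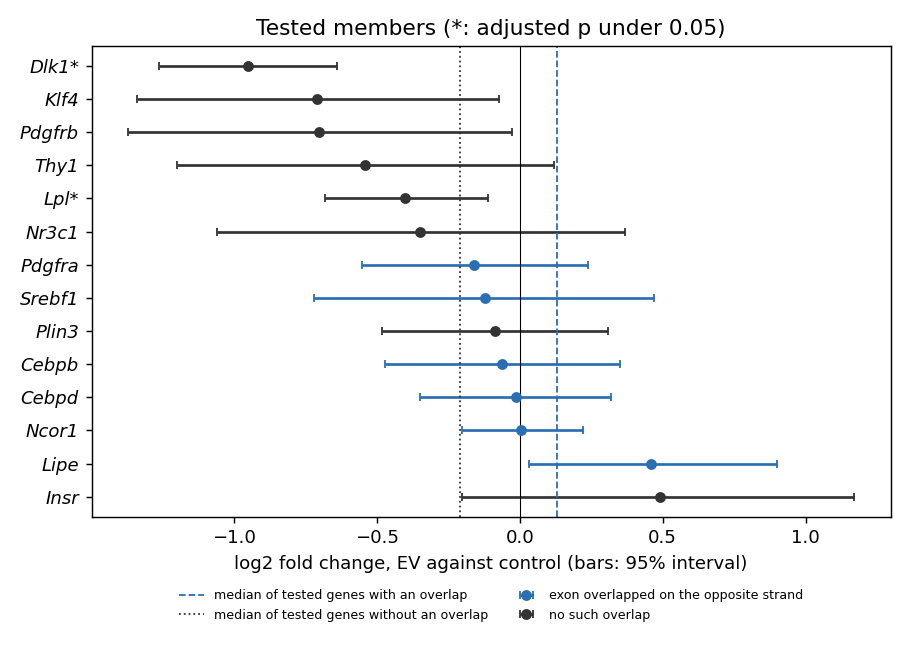
Log2 fold change of EV against control for the 14 tested genes, with 95% intervals from edgeR's quasi-likelihood fit. Blue genes have an exon overlapped on the opposite strand and black genes do not, the dashed and dotted lines mark the medians of all tested genes of each kind, and only the intervals of Dlk1, Klf4, Pdgfrb and Lpl lie below 0 and that of Lipe above it.

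Dlk1, the inhibitor of differentiation that preadipocytes lose when they become fat cells, had the lowest adjusted p of the 14. It lies on chromosome 12 (109452485 to 109463336, plus strand, GRCm38) and no exon of another gene overlaps it on the opposite strand. Its counts were 112, 137 and 153 in control 1, 2 and 3, and 42, 72 and 67 in EV 1, 2 and 4. All EV libraries were below all control libraries, and EV 1 was the lowest. The level went from 223 ± 16.1 normalized CPM (SD, n = 3) to 115 ± 22.5 (SD, n = 3), a log2 fold change of -0.95 (95% interval -1.26 to -0.64, adjusted p = 6.27e-06 from edgeR). It kept its call in all 14 alternative analyses, where its adjusted p was between 1.44e-06 and 0.000506 and its log2 fold change with 1 library left out was between -1.02 and -0.77.

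The other preadipocyte markers were also lower in direction, but 0 of the 3 tested passed in edgeR or DESeq2, and only Pdgfrb had an unadjusted p under 0.05. Pdgfrb, a receptor of platelet-derived growth factor on mesenchymal cells, had 20, 25 and 13 counts in the controls and 8, 14 and 9 after EV treatment. Control 3 lay within the range of the EV libraries, and the log2 fold change was -0.70 (95% interval -1.37 to -0.028, adjusted p = 0.122 from edgeR). Without control 3 it was -1.0 (adjusted p = 0.0317 from edgeR). Thy1, a surface glycoprotein of fibroblasts, had 13, 21 and 18 counts against 10, 10 and 11, which did not overlap. Its log2 fold change of -0.54 had an interval of -1.20 to 0.12 (adjusted p = 0.234 from edgeR). Pdgfra, the receptor most used to mark adipocyte progenitors, had 42, 58 and 55 counts against 31, 48 and 42, and these ranges overlapped. Its log2 fold change was -0.16, with an interval of -0.55 to 0.24, and 2 genes that are not analysed here overlap 6.21% of its exon length on the opposite strand. Ly6a, the surface antigen SCA1, was too low to be tested, with 4, 4 and 10 counts against 0, 7 and 1. Cd34 had 1 count in control 1 and 0 elsewhere. The median over the 4 tested markers was -0.62, and 1 of the 4 was called, beside a median of 0.014 and 22.1% over all genes. Pdgfrb and Thy1 passed the filter mostly through the control libraries, so that their being tested already favoured a lower EV value.

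Among the adipocyte markers, 2 of 13 could be tested, and they differed in direction. Lpl codes for lipoprotein lipase, which releases fatty acids from circulating triglyceride. It lies on chromosome 8 (68880555 to 68906932, plus strand) without an exon overlap, and had 108, 158 and 149 counts in the controls and 76, 101 and 97 after EV treatment. After scaling for library size the groups did not overlap, with 230 ± 28.9 normalized CPM (SD, n = 3) against 175 ± 13 (SD, n = 3). The log2 fold change was -0.40 (95% interval -0.68 to -0.11, adjusted p = 0.0366 from edgeR). This call held in 6 of 14 alternatives only. The adjusted p was 0.151 with the Wald test of DESeq2, 0.239 without a filter on low counts and 0.312 when only genes without an opposite-strand overlap were fitted. It was 0.0569 with the replicate number as a block, 0.156 without control 2, 0.162 without EV 1, 0.102 without EV 2 and 0.0947 without EV 4.

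Lipe, the hormone-sensitive lipase that splits stored fat, lay in the other direction without passing the test. It had 26, 30 and 50 counts in the controls and 42, 45 and 40 after EV treatment. After scaling for library size, control 1 and 2 were below every EV library, and control 3 was within the range of the EV libraries. The log2 fold change was 0.46 (95% interval 0.032 to 0.90, adjusted p = 0.111 from edgeR), and it was 0.71 without control 3 (adjusted p = 0.0322 from edgeR). It was 0.79 with the replicate number as a block (adjusted p = 0.0218 from edgeR), a fit in which neither control 3 nor EV 4 bears on the contrast. The noncoding gene 4732471J01Rik overlaps 918 bases or 15.6% of the exon length of Lipe on the opposite strand. It had 51, 33 and 63 counts in the controls and 52, 64 and 58 after EV treatment, with a log2 fold change of 0.44 (adjusted p = 0.0876 from edgeR), close to that of Lipe. Its part in the count of Lipe was not tested. A difference between Lpl and Lipe was not tested.

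The remaining adipocyte markers above the floor had too few counts for the filter. Fabp4, the fatty acid carrier of adipocytes, had 3, 5 and 4 counts in the controls and 1 in each EV library. Pnpla2, which codes for adipose triglyceride lipase, had 4, 3 and 2 counts against 1, 0 and 0. Both were lower in every EV library than in every control library. Dgat1, an enzyme of triglyceride synthesis, had 2, 4 and 0 counts against 5, 4 and 1. In a fit without the filter, the adjusted p from edgeR was 0.218 for Fabp4, 0.178 for Pnpla2 and 0.505 for Dgat1. Slc2a4, the insulin-responsive glucose transporter, stayed at the floor with 0, 0 and 1 counts against 1, 3 and 2.

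Of the 5 inducing regulators tested, 0 passed in edgeR or DESeq2, and 1 (Klf4) was lower at an unadjusted p of 0.05. The first C/EBP factors were among the highest of the 42 genes and the groups overlapped in both. Cebpb had 37, 54 and 56 counts in the controls and 44, 33 and 45 after EV treatment, a log2 fold change of -0.063 with an interval of -0.47 to 0.35. Cebpd had 62, 75 and 98 counts against 68, 78 and 56, and its log2 fold change of -0.014 had an interval of -0.35 to 0.32.

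Both C/EBP genes share exon sequence with another gene on the opposite strand. Tmem189 overlaps 312 bases of Cebpb, 20.7% of its exon length, and had between 772 and 1051 counts per library, with a log2 fold change of 0.38 (adjusted p = 0.00163 from edgeR). Spidr overlaps 562 bases of Cebpd, 15.0% of its exon length, and had between 39 and 68 counts. Whether these neighbours add to the counts of the C/EBP genes was not tested.

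Klf4, a Krüppel-like factor that acts at the start of the cascade, had 17, 26 and 23 counts in the controls and 15, 7 and 13 after EV treatment. After scaling, EV 2 was the lowest library and EV 1 lay within the control range. The log2 fold change was -0.71 (95% interval -1.34 to -0.072, adjusted p = 0.0969 from edgeR). Nr3c1, the glucocorticoid receptor through which dexamethasone acts in the usual induction mixture, had 8, 22 and 14 counts against 7, 12 and 11, with a log2 fold change of -0.35 (interval -1.06 to 0.37). Srebf1, a regulator of fatty acid synthesis genes, had 15, 21 and 23 counts against 19, 16 and 12, with a log2 fold change of -0.12 (interval -0.72 to 0.47).

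Rxra, the partner of PPARG in its DNA-binding pair, was the only gene of the PPARG core above the floor. It had 7, 10 and 6 counts in the controls and 3, 4 and 2 after EV treatment, so that the groups did not overlap. It was too low for the filter, and a fit without the filter gave a log2 fold change of -1.04 (adjusted p = 0.249 from edgeR). Of the factors that commit a cell to the adipocyte lineage, Ebf1 had 11, 12 and 7 counts against 5, 4 and 5, again without overlap (adjusted p = 0.319 from edgeR without the filter). Zfp423 had between 0 and 4 counts.

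Among the 6 brakes and Wnt genes, only Ncor1 could be tested. This corepressor, which keeps PPARG targets silent, had 326, 341 and 365 counts in the controls and 298, 291 and 310 after EV treatment, and 575 ± 24.2 against 579 ± 60.1 normalized CPM (SD, n = 3 each). Its log2 fold change was 0.0058 with an interval of -0.20 to 0.22, the narrowest of the 14, and it was -0.13 when counts were scaled by library totals alone, which moved the median of all genes to -0.12. Wnt5a, a Wnt ligand, had between 1 and 6 counts. Sfrp1, a secreted antagonist of Wnt proteins, had 8, 9 and 7 counts against 6, 8 and 15, with EV 4 the highest of the 6 libraries.

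Lipid droplet coats that are made in many cell types were present in both groups. Plin3 had 45, 50 and 54 counts in the controls and 36, 38 and 48 after EV treatment, with a log2 fold change of -0.086 (interval -0.48 to 0.31). Plin2, the coat that rises when cells store lipid, had 14, 13 and 11 counts against 4, 5 and 6. All EV libraries were below all control libraries, but the gene missed the filter, and without the filter its adjusted p was 0.131 from edgeR with a log2 fold change of -1.04. Of the insulin response genes, Insr, the insulin receptor, had 8, 8 and 20 counts against 12, 16 and 16. Its log2 fold change of 0.49 had an interval of -0.20 to 1.17 (adjusted p = 0.306 from edgeR). Irs1, an adaptor of the receptor, had between 3 and 9 counts and overlapping groups. Of the 11 genes above the floor that missed the filter, 5 did not overlap between the groups, all lower in EV (Rxra, Ebf1, Plin2, Fabp4 and Pnpla2), and 6 overlapped. Over all 5515 genes of this kind 20.6% did not overlap, and 17.9% were lower in EV without overlap. Fabp4 and Pnpla2 were above the floor through the control libraries alone, so that being counted here already favoured a lower EV value. Without the filter 0 of the 11 passed, with adjusted p-values from edgeR between 0.131 and 0.952. Rxra, Plin2, Fabp4 and Pnpla2 had an unadjusted p under 0.05 in that fit. The share of all genes of this kind under that threshold was not computed, so that these 4 have no background beside them.

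To set preadipocyte against adipocyte markers, the levels per kilobase of exon were summed over the 6 and the 13 markers in each library. The preadipocyte sum was 65.4, 73.0 and 76.9 CPM per kb in the controls and 32.4, 51.5 and 42.5 after EV treatment. The adipocyte sum was 32.1, 38.4 and 38.4 against 35.6, 35.2 and 32.9. The preadipocyte sums of the groups did not overlap and those of the adipocyte markers did. The preadipocyte sum was therefore 2.04, 1.90 and 2.00 times the adipocyte sum in control 1, 2 and 3 and 0.908, 1.46 and 1.29 times in EV 1, 2 and 4, with means of 1.98 ± 0.0709 and 1.22 ± 0.283 (SD, n = 3 each). On this scale EV 1 was the only library with the higher adipocyte sum. Without division by length, the preadipocyte sum was 354, 398 and 389 normalized CPM in the controls and 192, 266 and 249 after EV treatment, and the adipocyte sum was 264, 325 and 322 against 266, 273 and 270, so that the adipocyte sum was the higher one in all 3 EV libraries. Over all 6 libraries the mean ratio was 1.60 with division by length and 1.07 without it. The sums per kilobase, their ratios and the share of each gene in them depend on the merged exon lengths. No test was run on these sums.

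Few genes carried both sums. Dlk1 gave between 53.9% and 55.9% of the preadipocyte sum in the controls and between 43.6% and 53.4% after EV treatment. Lpl gave between 57.9% and 63.9% of the adipocyte sum in the controls and between 43.0% and 53.9% after EV treatment. Lipe gave between 21.6% and 34.6% and between 38.2% and 42.3%, respectively. The adipocyte sum thus rested mainly on these lipases in every library, and the defining adipocyte markers Adipoq, Plin1, Cidec, Cfd and Retn added 0 counts to it.

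**Figure D3:**
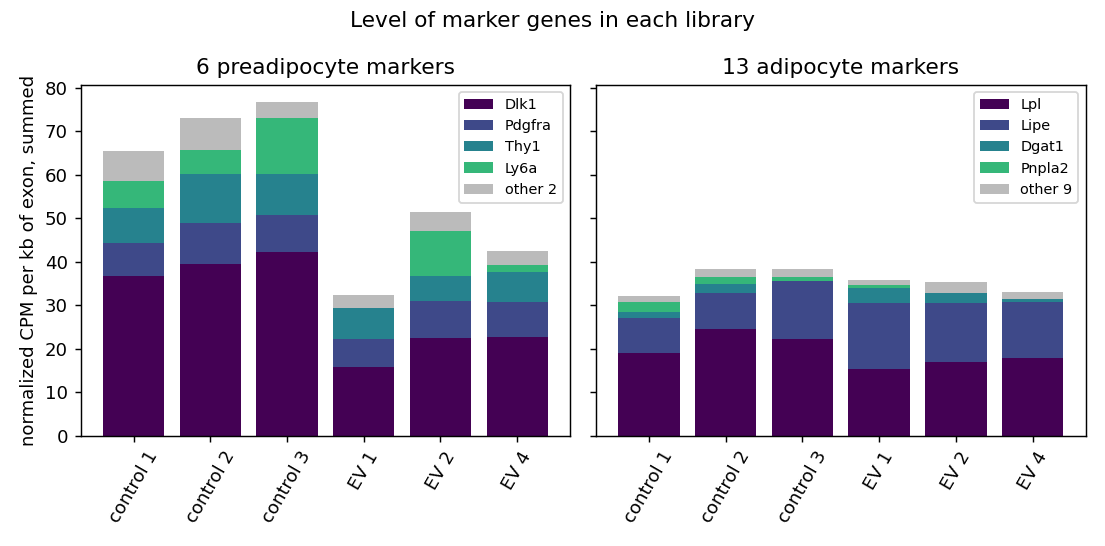
Normalized CPM per kilobase of exon, summed over 6 preadipocyte markers (left) and 13 adipocyte markers (right) in each of the 6 libraries, with the 4 largest contributors in colour and the rest in grey. The preadipocyte bars stand between 65.4 and 76.9 in the controls and between 32.4 and 51.5 after EV treatment, whereas the adipocyte bars stand between 32.1 and 38.4 in all 6.

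Other genes of adipogenesis were read from 2 further lists, 40 activators and 32 brakes. These are names of the lists, and the action of each gene on adipogenesis was not tested. Of these 72 genes, 56 were above the floor and 24 could be tested. The counts of 5 fell (20.8% of those tested, near the 22.1% of all genes called and above the 14.4% called lower) and those of 0 rose, also 5 and 0 at an unadjusted p of 0.05, while DESeq2 called 1 lower and 0 higher. The direction was lower in 20 of the 24, with a median of -0.21 beside 0.014 for all genes tested. Among the activators 4 of 13 fell. Cav1, the main protein of caveolae, which are abundant in fat cells, had 72, 99 and 83 counts in the controls and 41, 49 and 43 after EV treatment, a log2 fold change of -0.73 (adjusted p = 0.00193 from edgeR). Akt1 and Akt2, kinases of the insulin pathway, had log2 fold changes of -0.74 and -1.01 (adjusted p = 0.0175 and 0.0454 from edgeR). Ep300, a histone acetyltransferase and coactivator, had one of -0.85 (adjusted p = 0.0258 from edgeR). Akt2, with 18, 15 and 16 counts against 5, 12 and 4, passed the filter on low counts mostly through the control libraries. Its being tested therefore already favoured a lower EV value.

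Of the 11 tested genes on the list of brakes, 1 fell. Whether this gene, Tcf7l1, holds adipogenesis back in these cells was not tested. Tcf7l1, a transcription factor of the Wnt pathway, had 10, 17 and 15 counts in the controls and 3, 1 and 5 after EV treatment, a log2 fold change of -1.98 (95% interval -2.93 to -1.03, adjusted p = 0.00178 from edgeR). It passed the filter on low counts through the control libraries alone, so that its being tested already favoured a lower EV value. Cav1 kept its call in all 14 alternatives and Tcf7l1 in the 11 in which it was tested. Akt1 kept it in 8 of 14, Ep300 in 6 of 13 and Akt2 in 4 of 12. The medians were -0.26 for the list of activators and -0.13 for the list of brakes, Tcf7l1 included. A difference between these lists was not tested.

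**Figure D4:**
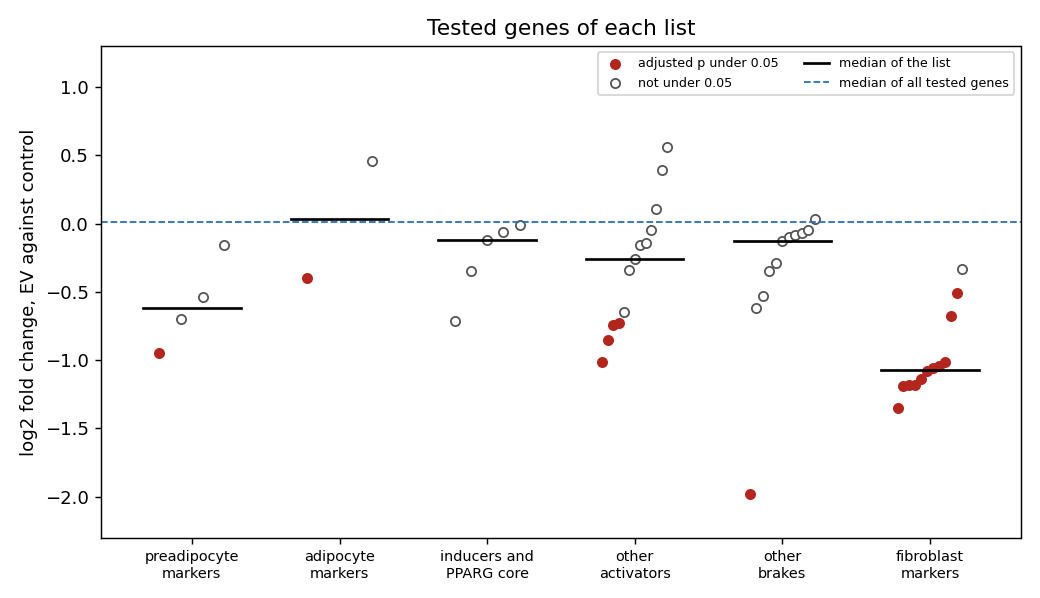
Log2 fold change of EV against control for the tested genes of 6 lists, with 1 point per gene (red for an adjusted p under 0.05 from edgeR), a black line at each list's median and a dashed line at the median of all tested genes, 0.014. The 12 fibroblast markers lie between -1.35 and -0.33 and the points of the adipogenesis lists lie mostly closer to 0.

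General fibroblast markers moved beside Dlk1 and the other lower genes. Of 14 listed, 12 were tested, all were lower in direction and 11 fell. The median log2 fold change was -1.07, beside 0.014 for all genes. The calls are 91.7% of the markers tested, beside 22.1% of all tested genes called and 14.4% called lower. DESeq2 called 10 lower and 0 higher. For all 12 the groups did not overlap, against 39.4% of all genes tested. Lum and Fap had 0 counts in every library. The summed level of the list was between 3071 and 3684 normalized CPM in the controls and between 1437 and 1806 after EV treatment. Its most counted genes were Fn1, Col1a2 and Col6a1, which code for fibronectin and collagen chains, with log2 fold changes of -1.14, -1.06 and -0.68. The part of this shift in the values of Dlk1 and Lpl was not tested.

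The EV donor line is of liver progenitor origin, and 14 markers of liver progenitor and epithelial cells were read. Of these, 9 had 0 counts in every library, among them Alb, Afp, Epcam, Krt8, Krt18 and Krt19. The list summed to between 57.2 and 102 normalized CPM in the controls and between 37.0 and 46.5 after EV treatment, with Spp1, Sox9 and Krt7 its most counted genes. Spp1, which fibroblasts can also make and which passed the filter through the control libraries alone, had 17, 45 and 39 counts against 7, 9 and 7 (log2 fold change -1.91, adjusted p = 1.49e-05 from edgeR), and Sox9 had between 9 and 13. Of 7 macrophage markers 1 was above the floor, and the list summed to between 9.23 and 14.6 normalized CPM in the controls and between 15.3 and 16.9 after EV treatment. Its most counted genes were Cd14, Cd68 and Lyz2, with at most 4 counts in a library, and Ptprc and Adgre1 were at 0.

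Exon overlap on the opposite strand moved with the direction of change as well. The 6 tested genes of the 42 with such an overlap (Cebpb, Cebpd, Srebf1, Ncor1, Pdgfra and Lipe) had a median log2 fold change of -0.038 and 0 calls, by edgeR and by DESeq2, with 1 higher and 0 lower at an unadjusted p of 0.05. The 8 without one had a median of -0.47 and 2 calls by edgeR, both lower. DESeq2 called 1 of the 8, and 4 were lower and 0 higher at an unadjusted p of 0.05. Over the whole table, 2066 tested genes with an overlap had a median of 0.13, with 196 lower and 257 higher calls, and 2629 without one had a median of -0.21, with 523 lower and 68 higher. When only genes without an overlap were fitted, the log2 fold change of Dlk1 was -0.77 (adjusted p = 0.000341 from edgeR) and that of Lpl was -0.21 (adjusted p = 0.312 from edgeR).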

How the data were processed

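RNA of 3T3-L1 cultures treated for 24 h with EVs (3 libraries) or the control preparation (3 libraries) was sequenced as single reads with a stranded mRNA kit. Groups came from the sample labels. Per the methods, reads were inspected in FASTQC and mapped by STAR to mm10 (GRCm38), and the authors deposited raw counts per gene from Rsubread, which are whole numbers and not normalized. Versions, annotation release, strand setting and the handling of reads with several matches are not given in the sources used here. Of the identifiers, 99.8% had a RefSeq symbol and 88.7% matched GENCODE vM21. Exon lengths, merged over all transcripts of a gene, and opposite-strand exon overlaps were taken from it. Gene coordinates and promoter windows came from RefSeq.

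Counts were tested in R 4.3.3 with the quasi-likelihood functions glmQLFit and glmQLFTest of edgeR 4.0.16 (low counts removed by filterByExpr, scaling by TMM, dispersion from estimateDisp, no covariates), over all 5066 genes that passed the filter, with Benjamini-Hochberg adjustment and a threshold of 0.05. The biological coefficient of variation was 0.0779. Intervals of 95% used a standard error equal to log2 fold change over the root of F. Normalized CPM use the TMM factors and the totals of the genes kept by the filter, whereas the CPM of the floor use library totals. With 3 libraries against 3, an exact permutation test could not go below 0.1, so none was run on summed levels. The genes and lists were chosen with earlier results of these data known. Per-library values were given for the called genes, the preadipocyte and adipocyte markers and the C/EBP and PPARG genes above the floor. Outside this rule, they were also given for Pparg, Cebpa, Cd34 and Slc2a4, which are at the floor. Of the other adipogenesis lists the called genes were named, at most 5 in each direction, and of the remaining lists the 3 most counted genes. Klf4, Nr3c1, Srebf1, Ebf1, Ncor1, Sfrp1, Plin2, Plin3 and Insr were given in full after their values were seen.

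Alternatives were DESeq2 size factors or the total library size for scaling, the Wald test of DESeq2 1.42.0, no filter, at least 10 counts in every library, a replicate block, a fit of genes without opposite-strand overlap, and each library left out. The legacy quasi-likelihood fit was added after the data were seen. On simulated data for EV against control with 4789 genes tested, edgeR recovered 87% of 184 changed genes with 5.88% of its calls false. No replicates were duplicates, since counts of each pair differed beyond sampling noise (chi-square over degrees of freedom, 1.22 to 2.04).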

Additional observations from a re-analysis of the deposited data

How the results depend on the processing

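The number of genes called was 1121 in the analysis reported. It was 539 with the DESeq2 Wald test, 632 with at least 10 counts in every library, 542 among genes without an opposite-strand overlap, and between 489 (without control 2) and 1215 (without control 3) with 1 library left out. Scaling by the total library size gave 970 lower and 90 higher calls with a median log2 fold change of -0.12, and DESeq2 size factors gave 710 and 458. Of the 42 genes, 1 was called with the Wald test, without a filter and among genes without an overlap (Dlk1 each time), and between 1 and 5 with 1 library left out. The 5, without control 3, were Dlk1, Lpl, Pdgfrb, Plin2 and Lipe, and Lipe was the only one that was higher. The other adipogenesis genes called, 5 in the analysis reported, were 1 with the Wald test, 3 without a filter, 2 with at least 10 counts, 1 among genes without an overlap, and between 3 (without control 2, control 3 or EV 4) and 7 (without EV 2) with 1 library left out. The level of preadipocyte against adipocyte markers was 1.07 without division by length and 1.60 with it. The cause of these changes was not tested.

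The groups share the replicate numbers 1 and 2, which the labels do not tie to a common plate or day. Deviations from the group means correlated at 0.0714 for number 1 and 0.0634 for number 2. Pairs of unlike number lay between -0.101 and 0.0552, below both. These small values do not decide whether the numbers pair the cultures, and the numbers were taken as names only. With the number as a replicate block, control 3 and EV 4 each have a term of their own, so that the contrast rests on the 2 shared numbers and the fit differs from the reported one in its libraries too. It called 1119 genes, of them Dlk1 and Lipe (log2 fold change 0.79, adjusted p = 0.0218 from edgeR) among the 42 and 3 among the other adipogenesis genes. Under the block Lpl had an adjusted p of 0.0569 from edgeR, Cebpd a log2 fold change of 0.24, Srebf1 one of 0.11 and Ncor1 one of -0.024.

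Other changes of sign were found in genes whose reported log2 fold change was between -0.12 and 0.0058, and in Nr3c1, reported at -0.35. Cebpb was at 0.022 without a filter. Cebpd was at 0.0047 with DESeq2 size factors, 0.010 with the Wald test and 0.071 without a filter. Ncor1 was at -0.13 with the total library size and -0.078 with at least 10 counts, and Plin3 was at 0.094 among genes without an overlap. With 1 library left out, Cebpb was between -0.19 and 0.16, Cebpd between -0.12 and 0.15, Nr3c1 between -0.60 and 0.011, Srebf1 between -0.31 and 0.078, Ncor1 between -0.054 and 0.12, and Plin3 between -0.18 and 0.052. Of the values of single genes of the 42 under alternatives, 155 kept direction and side of the threshold, 8 (all of Lpl) lost the call, 3 gained it and 19 changed sign. The 17 genes at the floor have no fold change. Of the 11 below the filter, Plin2 was called when control 3 was left out. The part of sequencing depth in these low counts was not tested.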
